A study of Mus musculus with 6 samples.

Results

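The Hox genes of the 4 clusters (Hoxa, Hoxb, Hoxc and Hoxd) and the Pbx, Meis and Cdx genes were followed in double-negative thymocytes of RAG1-deficient and RAG1/Ezh2 double mutant mice. Members were chosen by name: every probe set annotated to exactly 1 gene whose symbol is Hoxa, Hoxb, Hoxc, Hoxd, Pbx, Meis or Cdx followed by a number. This gave 39 genes of the 8251 that had a probe set of their own, read by 48 probe sets. The 31 Hox genes had 38 probe sets, with 10 genes of the Hoxa, 9 of the Hoxb, 5 of the Hoxc and 7 of the Hoxd cluster. The other 8 genes were 2 Pbx, 3 Meis and 3 Cdx genes, with 10 probe sets. Other genes with such names were not analysed here, save for probe sets shared by 2 Hox genes, which are given at the end.

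Total RNA was measured on 6 Affymetrix mouse arrays. Per the labels, 3 arrays came from double-negative thymocytes of mice lacking RAG1, without which antigen receptor genes are not assembled and thymocytes stop at this stage, and 3 from mice mutant for both RAG1 and Ezh2. Loss of RAG1 was therefore shared by both groups, and the comparison asks what differs when Ezh2 is mutant as well. Strain, sex, age, the alleles, any Cre driver and the number of animals behind each group are not given in the labels. The spread between samples, and so every p-value, may thus be technical. The sample titles come in 3 styles, called numbered, Rag and Thy after their wording. Each style holds 1 array of each group, and every list of 3 values below is in that order. The 2 Rag titles name T cells and do not give the double-negative stage, and the numbered and Thy titles of the RAG1-deficient group end in WT, a term the labels do not explain.

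Hox genes encode homeodomain transcription factors that lie side by side in 4 clusters and are expressed along the body axis in the order in which they sit in the cluster. Pbx and Meis proteins are homeodomain factors of the TALE class that bind DNA together with Hox proteins, and Cdx proteins act upstream of Hox genes in the embryo. In blood formation, Hoxa genes, Meis1 and Pbx3 are best known from stem and progenitor cells and from acute leukaemias. Ezh2 is the methyltransferase of Polycomb repressive complex 2, which places H3K27me3, and silent Hox clusters are among the classic targets of this mark, while the trithorax/MLL proteins oppose it there.

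The intensities were linear and had been scaled to a common mean on every array, and differences are given on the log2(intensity + 23) scale, double mutant minus RAG1-deficient. This scale understates differences between dim probe sets. A probe set entered the test when 3 or more arrays exceeded 86.5, the 40th percentile of the table. The percent of probe sets above that level ranged from 55.2 to 64.3 over the arrays. Groups were compared with limma, without and with title style as a block (the unpaired and the paired fit), with Benjamini-Hochberg adjustment over the 7642 tested probe sets. Ezh2 itself, the targeted gene, gave 1434.7, 1641 and 1789.5 in RAG1-deficient and 291.5, 650.6 and 723.6 in double mutant samples. Its log2 difference was -1.60, which passed in the paired limma fit (adjusted p = 0.0261) and not in the unpaired fit (adjusted p = 0.332). Of the markers of double-negative thymocytes, 11 of the 12 genes on the array were tested, and Cd44 was dim on all 6 arrays. The tested markers had a median log2 difference of -0.23, and 0 passed in the paired limma fit. The 12 genes summed to 77268, 117450 and 93935 in RAG1-deficient and to 73754, 101732 and 69182 in double mutant samples. These ranges overlapped, with the double mutant the lower of each pair. RAG1-deficient replicate 1, of the numbered style, stood apart with Cd8b1 at 8425.8 and Cd8a at 2973, where the other 5 arrays lay at 11.2 to 164.4 for Cd8b1 and at 14.7 to 81.3 for Cd8a. In such bulk RNA, fewer cells of a type and less RNA per cell cannot be told apart.

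Most members were dim. The test took in 13 of the 48 member probe sets, or 27.1%, against 61.5% of all 12422 probe sets. Of the Hox probe sets 9 of 38 were tested (23.7%): 3 of 14 in the Hoxa, 5 of 10 in the Hoxb, 0 of 5 in the Hoxc and 1 of 9 in the Hoxd cluster. All 4 Pbx probe sets were tested, and 0 of 3 Meis and 0 of 3 Cdx probe sets. Among the 13 tested members, 2 probe sets of Pbx3 exceeded the filter level on the double mutant arrays alone, and 0 members did so on the RAG1-deficient arrays alone. The remaining Pbx3 probe set, 93616_g_at, exceeded it on every double mutant array but only on the numbered RAG1-deficient array, at 128.9. The entry of every Pbx3 probe set into the test thus already depended on high values in the double mutant group. A further 12 member probe sets exceeded the filter level on 1 or 2 arrays and 23 on none. Only Hoxa2, 1 probe set of Hoxa4, 1 of Hoxb8 and Pbx2 exceeded it on all 6 arrays. The files used here hold no detection calls, so a dim value is not shown to be the absence of a transcript.

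In the unpaired limma fit 0 of the 13 tested member probe sets passed, where the share over all tested probe sets was 0.0393% higher and 0.0% lower. In the paired limma fit 1 of the 13 passed, a probe set of Pbx3, which rose in the double mutant; 0 fell. At an unadjusted p under 0.05 in limma, 3 of the 13 lay higher and 0 lower in either fit, and these 3 were the Pbx3 probe sets. Of all tested probe sets, 2.29% lay higher and 0.903% lower at that level in the unpaired fit, and 7.73% and 5.4% in the paired fit. Entry of all 3 depended on the double mutant arrays, for 2 of them on those arrays alone. The counts thus describe the members and support nothing further. Over all tested probe sets the paired fit called 0.563% higher and 0.105% lower. In 6 of the 48 member probe sets all 3 double mutant values lay above all 3 RAG1-deficient values, and these were the 3 probe sets of Pbx3 and 1 each of Meis2, Meis3 and Hoxa7. The groups were apart in this direction for 3.37% of all probe sets. In 1 of 48, Hoxd11, all double mutant values lay below, against 3.13% of all probe sets. Split by family, such separation upward was seen in 5 of the 10 Pbx, Meis and Cdx probe sets, 3 of them reading the same gene, and in 1 of the 38 Hox probe sets.

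**Figure D1:**
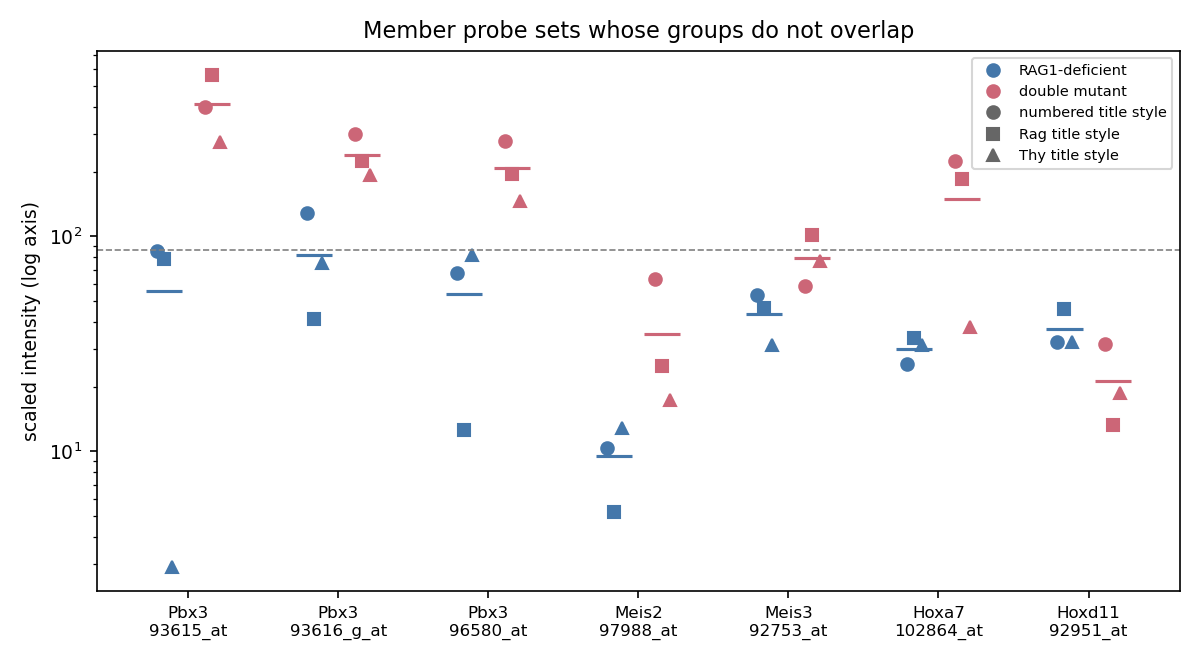
Scaled intensity (log axis) of the 7 member probe sets whose groups did not overlap, 1 point per array (RAG1-deficient in blue, double mutant in red, shapes for title style), with bars at the group means and a dashed line at the filter level of 86.5. The 3 Pbx3 probe sets had double mutant values of 145.9 to 562.1, and all 6 values of Meis2 and Hoxd11 lay under the filter level.

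Pbx3 encodes a TALE partner of Hox proteins. Its probe set 93615_at gave 85.5, 78.7 and 2.9 in RAG1-deficient samples and 399.9, 562.1 and 275.7 in double mutant samples. All double mutant values were several times the highest RAG1-deficient value, and the RAG1-deficient Thy sample was far below the other 2. The means were 55.7 ± 45.9 (SD, n = 3) and 413 ± 144 (SD, n = 3). The log2 difference was 2.67 ± 0.57 (SE of the unpaired fit), and within the 3 pairs it was 1.96, 2.52 and 3.53. It passed the filter through the double mutant arrays alone, as all 3 RAG1-deficient values lay under 86.5. It rose in the paired limma fit (adjusted p = 0.0261), but not when all probe sets were fitted without the filter (adjusted p = 0.0716), and it did not pass in the unpaired fit (adjusted p = 0.332). The exact permutation test of the group means gave p = 0.1, the smallest that 3 samples against 3 allow. The paired call was also lost with a pseudocount of 5 (adjusted p = 0.0696), without a trend in the variance (0.0815), and when the numbered pair (0.0796) or the Thy pair (0.107) was left out. Without the RAG1-deficient Thy sample, whose value was 2.9, the log2 difference was 1.998.

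The other 2 probe sets of Pbx3 lay on the same side. Probe set 93616_g_at, which the platform table derives from the same source sequence as 93615_at, gave 128.9, 41.1 and 75.4 in RAG1-deficient and 299.4, 224.2 and 193.9 in double mutant samples. Its lowest double mutant value exceeded its highest RAG1-deficient value, and the log2 difference of 1.39 ± 0.40 (SE) missed the threshold in limma (adjusted p = 0.805 unpaired and 0.0796 paired). Its entry into the test needed the double mutant arrays, as only the numbered sample of the RAG1-deficient group exceeded the filter level. Probe set 96580_at, from a separate source sequence, gave 67.7, 12.5 and 82.3 against 279.4, 196.1 and 145.9. Again the groups did not overlap, the RAG1-deficient Rag sample was the lowest of the 6, and the log2 difference of 1.68 ± 0.50 (SE) did not pass (adjusted p = 0.925 unpaired and 0.142 paired). It too entered the test through the double mutant arrays alone, and without the filter its paired adjusted p was 0.252. All 3 probe sets were higher in the double mutant in every pair, by 1.96, 1.09 and 1.74 in the numbered pair, 2.52, 1.95 and 2.63 in the Rag pair and 3.53, 1.14 and 0.68 in the Thy pair. The probe sets read 1 gene in the same RNA samples and are not separate replicates. When any 1 sample was left out, the log2 differences stayed between 1.998 and 3.03 for 93615_at, between 1.08 and 1.70 for 93616_g_at and between 1.20 and 1.98 for 96580_at.

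Pbx2, the other Pbx gene on the array and also a Hox cofactor, did not share this pattern. It gave 402.6, 447.5 and 352.8 in RAG1-deficient and 273.7, 423.4 and 306.3 in double mutant samples. The ranges overlapped, and the double mutant was the lower sample of each pair. Its log2 difference of -0.26 ± 0.25 (SE) missed the threshold in limma without and with pairing (paired adjusted p = 0.561). The difference between the responses of Pbx2 and Pbx3 was not tested.

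Of the markers of other cells, Cpa3 and Pdgfrb moved with Pbx3, while the medians of their lists lay slightly below 0. The median log2 difference was -0.08 over the 8 tested myeloid and mast cell genes and -0.13 over the 11 tested stromal genes. The mast cell protease gene Cpa3 gave 156.3, 513.4 and 569.3 in RAG1-deficient and 1007.1, 2992.2 and 1287.1 in double mutant samples, and it rose in the paired limma fit (adjusted p = 0.0261, log2 difference 2.05). It was the only one of 8 tested myeloid and mast cell genes to pass, and the mast cell and basophil genes Ms4a2 and Mcpt8 stayed untested at 29.4 to 63.8 and 20.1 to 103. The summed level of the 13 myeloid and mast cell genes ranged from 3529 to 12866 in RAG1-deficient and from 5782 to 6459 in double mutant samples. The pericyte gene Pdgfrb also rose in the paired limma fit (adjusted p = 0.0436), from 135.4, 210.3 and 201.6 to 419.9, 536.5 and 404.8, as the only one of 11 tested stromal genes. The summed level of the 15 stromal genes ranged from 2942 to 5398 and from 3231 to 4941. The 5 genes of the CD4 and CD8 stage summed to 13147, 1808 and 2010 in RAG1-deficient and to 1351, 1472 and 1033 in double mutant samples, which left the RAG1-deficient group higher. Without RAG1-deficient replicate 1, where the CD8 genes were bright, the log2 differences of the 3 Pbx3 probe sets were 3.03, 1.70 and 1.87. The part of these other cells in the Pbx3 result was not tested.

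Meis genes encode TALE factors that bind with both Pbx and Hox proteins. All 3 were under the filter and untested. Meis2 gave 10.4, 5.2 and 12.9 in RAG1-deficient and 63.7, 24.9 and 17.3 in double mutant samples. The groups did not overlap, yet the highest value was still under the filter level, and the double mutant Thy sample lay close to the RAG1-deficient range. Its log2 difference was 0.77 in all and 1.38, 0.76 and 0.17 within pairs. Meis3 gave 53.2, 46.6 and 31.4 against 59.0, 102.1 and 76.7, a log2 difference of 0.61, again without overlap and with the numbered double mutant sample barely above its counterpart. When limma was run without the filter, neither passed (paired adjusted p = 0.432 for Meis2 and 0.551 for Meis3). Meis1, the member of the family best known from leukaemia, read 5.5, 2.7 and 5.0 against 11.5, 2.1 and 8.0 with a probe set that can detect several transcripts, and its groups overlapped at this very low level.

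The 2 Hox genes whose groups did not overlap are shown first by the 250 bases before their start sites (RefSeq, GRCm38.p6), since CpG-rich promoters are the usual ground of Polycomb binding. Capitals mark CpG dinucleotides. Hoxa7 lies on the minus strand, window chr6:52218574-52218823, and Hoxd11 on the plus strand, window chr2:74679308-74679557.
Hoxa7: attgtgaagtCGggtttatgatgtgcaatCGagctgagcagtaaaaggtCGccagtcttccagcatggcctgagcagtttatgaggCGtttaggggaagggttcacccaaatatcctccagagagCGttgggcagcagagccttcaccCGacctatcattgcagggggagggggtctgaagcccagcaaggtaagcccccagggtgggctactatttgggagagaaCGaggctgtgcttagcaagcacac
Hoxd11: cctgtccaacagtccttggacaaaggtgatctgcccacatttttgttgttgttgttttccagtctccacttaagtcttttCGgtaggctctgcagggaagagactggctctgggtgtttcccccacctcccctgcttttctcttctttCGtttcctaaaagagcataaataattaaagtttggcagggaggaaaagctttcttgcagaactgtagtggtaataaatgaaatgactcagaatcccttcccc
The Hoxa7 window holds 7 CpG, more than 53.7% of the 32851 promoter windows in the table, and the printed Hoxd11 window holds 2, more than 18.8%. Hoxd11 has a second window, chr2:74682073-74682322, which holds 20 CpG, more than 82.1% of windows, and a match to TGATNNAT; it overlaps the gene and its sequence is not printed. Windows were at hand for 26 member genes, 28 windows in all, with a median of 13 CpG and a range of 2 to 35, against a median of 6 over all windows. Of these 28, 23 lay above the median of all. The letters TGATNNAT, a common form of the joint Pbx and Hox motif, occurred on either strand in 4 of the 28 member windows against 7.68% of all windows. The Meis motif TGACAG occurred in 2, against 15.9% of all windows. Neither was in the 2 windows whose sequence is printed, and neither a match nor its lack says whether a factor binds.

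Hoxa7, a gene of the middle of the Hoxa cluster, read 25.4, 33.6 and 31.2 in RAG1-deficient and 225.1, 184.9 and 38.0 in double mutant samples. The numbered and Rag double mutant samples were well above all others, while the Thy double mutant sample was just above the RAG1-deficient range. The means were 30.1 ± 4.2 (SD, n = 3) and 149 ± 98.5 (SD, n = 3), with log2 differences of 1.47 in all and 2.36, 1.88 and 0.17 within pairs. With 2 arrays above the filter level it was not tested, and in limma runs without the filter it did not pass (adjusted p = 0.9999 unpaired and 0.376 paired). Without the Thy double mutant sample its log2 difference was 2.10, and without the numbered one 1.09.

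Hoxd11, a gene of the posterior end of the Hoxd cluster, read 32.3, 46.2 and 32.4 in RAG1-deficient and 31.6, 13.3 and 18.6 in double mutant samples. All values were under the filter level, and the numbered samples were nearly equal, so the separation of the groups rests on a small margin there. Its log2 differences were -0.45 in all and -0.02, -0.93 and -0.41 within pairs. In the paired limma run without the filter it did not pass (adjusted p = 0.626).

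The 9 tested Hox probe sets had log2 differences from -0.44 to 0.21, with a median of -0.15, and 0 passed in either limma fit. The median over all tested probe sets was -0.0021. Of the 9, 8 lay below 0 and 1 above, where 49.6% of all tested probe sets lay above. Over all 38 Hox probe sets 12 lay above and 26 below 0, with a median of -0.05. Among all untested probe sets, which are dim like most Hox probe sets, the median was -0.06 and 40.8% lay above 0. The tested median moved with single samples, from -0.38 without RAG1-deficient replicate 2 to 0.08 without double mutant replicate 2, both of the Rag style. It was 0.03 without RAG1-deficient replicate 1, of the numbered style. Within pairs the median of the 38 Hox probe sets was -0.33 (numbered), -0.05 (Rag) and 0.12 (Thy), against -0.06, 0 and 0.01 over all probe sets. In 6 of the 38 the 3 pairs had the same sign, 3 upward and 3 downward. The share of all probe sets with the same sign is not given here, so nothing is drawn from this count.

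**Figure D2:**
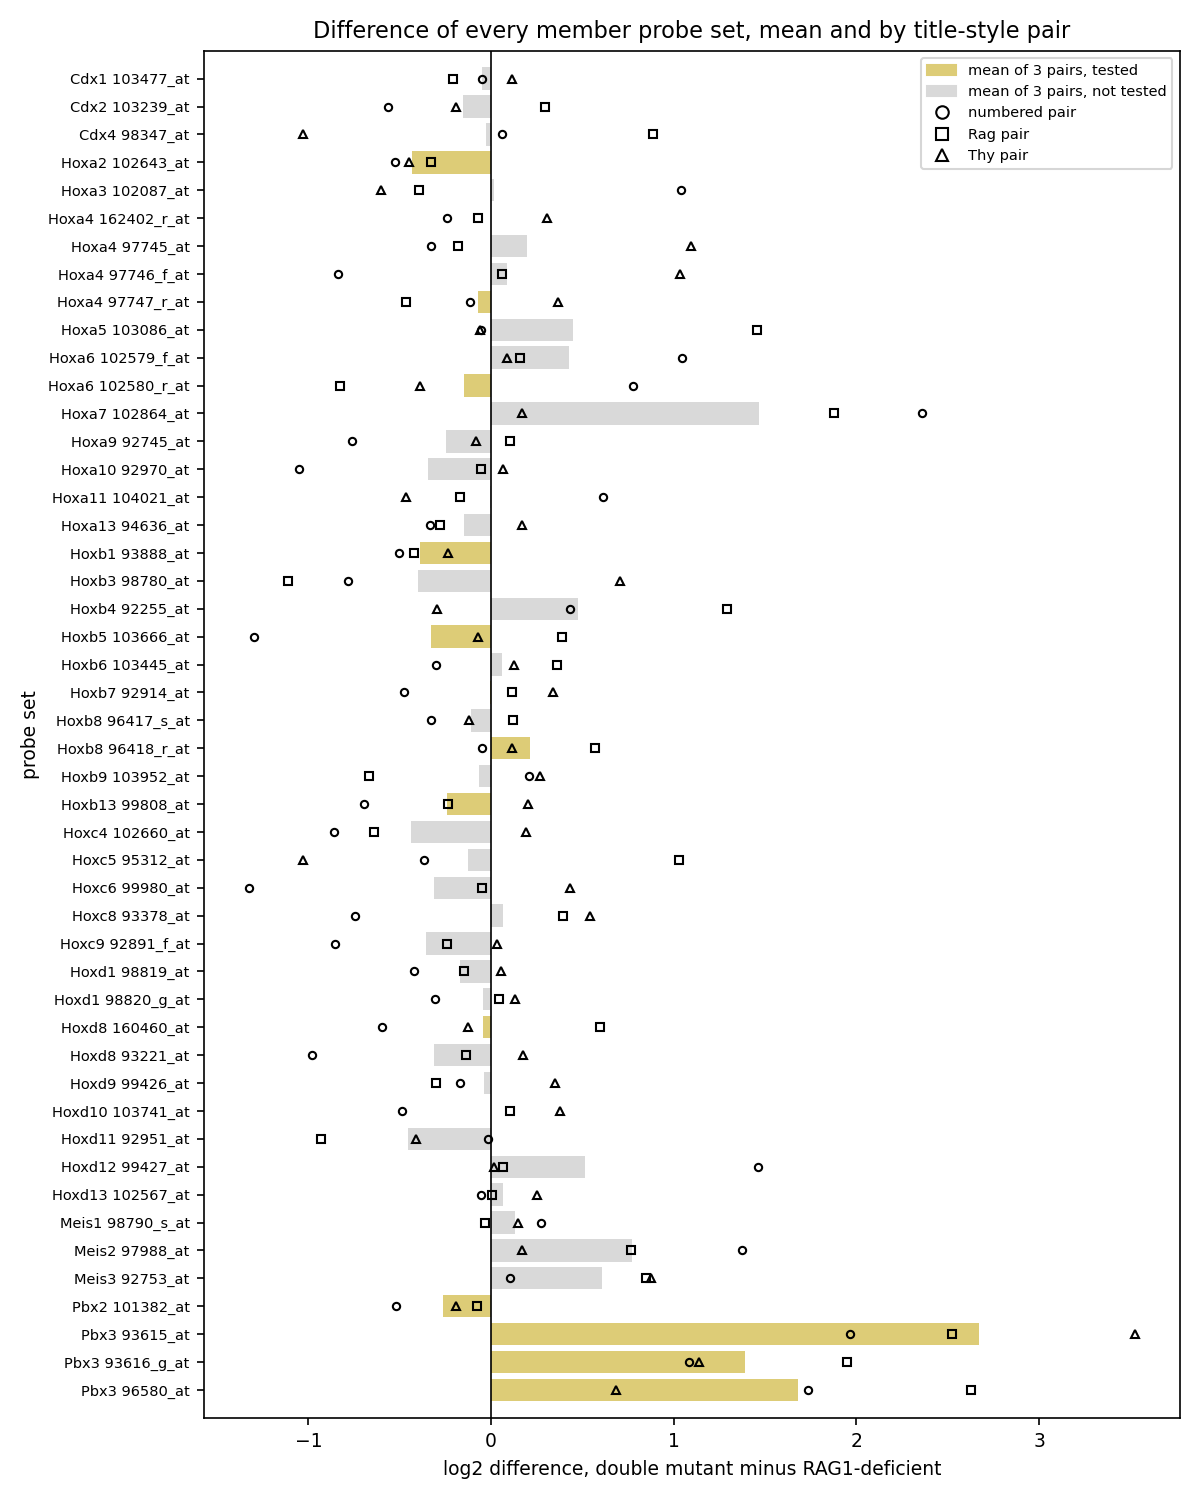
Log2 difference, double mutant minus RAG1-deficient, of all 48 member probe sets, with bars for the mean of the 3 pairs (yellow where tested, grey where not) and open marks for the numbered (circle), Rag (square) and Thy (triangle) pairs. The 3 Pbx3 probe sets reach 1.39 to 2.67, and the tested Hox probe sets lie between -0.44 and 0.21.

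In the Hoxa cluster, whose genes are the Hox genes most often followed in blood cells, the tested probe sets were those of Hoxa2, Hoxa4 and Hoxa6. Hoxa4 was read by 4 probe sets, of which 97747_r_at gave 576.8, 390.5 and 546.4 in RAG1-deficient and 531.2, 276.0 and 710.2 in double mutant samples. The groups overlapped fully and the Rag samples were the lowest in each, with a log2 difference of -0.07 ± 0.35 (SE; paired adjusted p = 0.904 in limma). The other 3 probe sets of Hoxa4 were untested. Probe set 97745_at gave 95.2, 62.3 and 24.4 against 71.0, 52.3 and 78.3. Probe set 162402_r_at gave 65.8, 28.5 and 57.2 against 52.2, 26.0 and 76.1, and 97746_f_at gave 23.1, 0.8 and 3.9 against 2.8, 1.8 and 32.0. The groups of all 3 overlapped. The suffix of 97747_r_at, shared by the tested probe sets of Hoxa6 and Hoxb8, marks probes that did not meet the platform's usual selection rules. Hoxa2, an anterior gene, had the lower value in the double mutant of each pair, with log2 differences of -0.53, -0.33 and -0.45, without passing (paired adjusted p = 0.428 in limma). Hoxa9, the Hoxa gene best known from progenitors and leukaemia, was untested, at 95.3, 37.7 and 57.5 in RAG1-deficient and 46.7, 42.1 and 53.1 in double mutant samples, in overlapping ranges. The median log2 difference over the 14 Hoxa probe sets was -0.0049, with 6 above and 8 below 0.

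The Hoxb cluster had 5 tested probe sets, those of Hoxb1, Hoxb5, Hoxb7, Hoxb8 and Hoxb13. Hoxb8, a gene known for holding myeloid progenitors in an immature state when overexpressed, gave 299.4, 150.3 and 367.5 against 288.6, 234.4 and 400.3 with probe set 96418_r_at. The groups overlapped and the Rag sample was the lowest of each, with a log2 difference of 0.21 ± 0.36 (SE; paired adjusted p = 0.692 in limma). Its second probe set, 96417_s_at, gave 47.5, 3.3 and 16.1 against 33.1, 5.6 and 12.9 and was untested, with overlapping groups. The suffix of the brighter 96418_r_at carries the same limit as that of 97747_r_at of Hoxa4. The log2 differences of the other 4 tested genes were -0.39 for Hoxb1, -0.33 for Hoxb5, -0.01 for Hoxb7 and -0.24 for Hoxb13. Hoxb6 was untested but gave 252.9, 45.5 and 60.9 against 200.8, 65.1 and 68.5. Its high values were those of the numbered style in both groups, and its log2 difference of 0.06 moved to 0.68 without RAG1-deficient replicate 1 and to -0.38 without double mutant replicate 1.

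No Hoxc probe set was tested. The 5 ranged from 3.2 to 158.6, with 4 below and 1 above 0 and a median log2 difference of -0.32. The pairs disagreed: every Hoxc probe set lay below 0 in the numbered pair, and all but that of Hoxc5 lay above 0 in the Thy pair. In the Hoxd cluster 1 of 9 probe sets was tested, 160460_at of Hoxd8, which gave 235.4, 34.1 and 143.5 against 147.5, 63.2 and 129.6. The groups overlapped with the Rag samples lowest, and the log2 difference was -0.04 ± 0.59 (SE; paired adjusted p = 0.968 in limma). The second probe set of Hoxd8, 93221_at, gave 105.1, 9.6 and 14.6 against 42.0, 6.6 and 19.4 and was untested, with a log2 difference of -0.31 that turned to 0.31 without RAG1-deficient replicate 1. Over the 9 Hoxd probe sets 2 lay above and 7 below 0, with a median of -0.04. The 3 Cdx genes, which in the embryo switch on posterior Hox genes, lay at 3.3 to 75.2 on every array, all under the filter level, with a median log2 difference of -0.05.

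**Figure D3:**
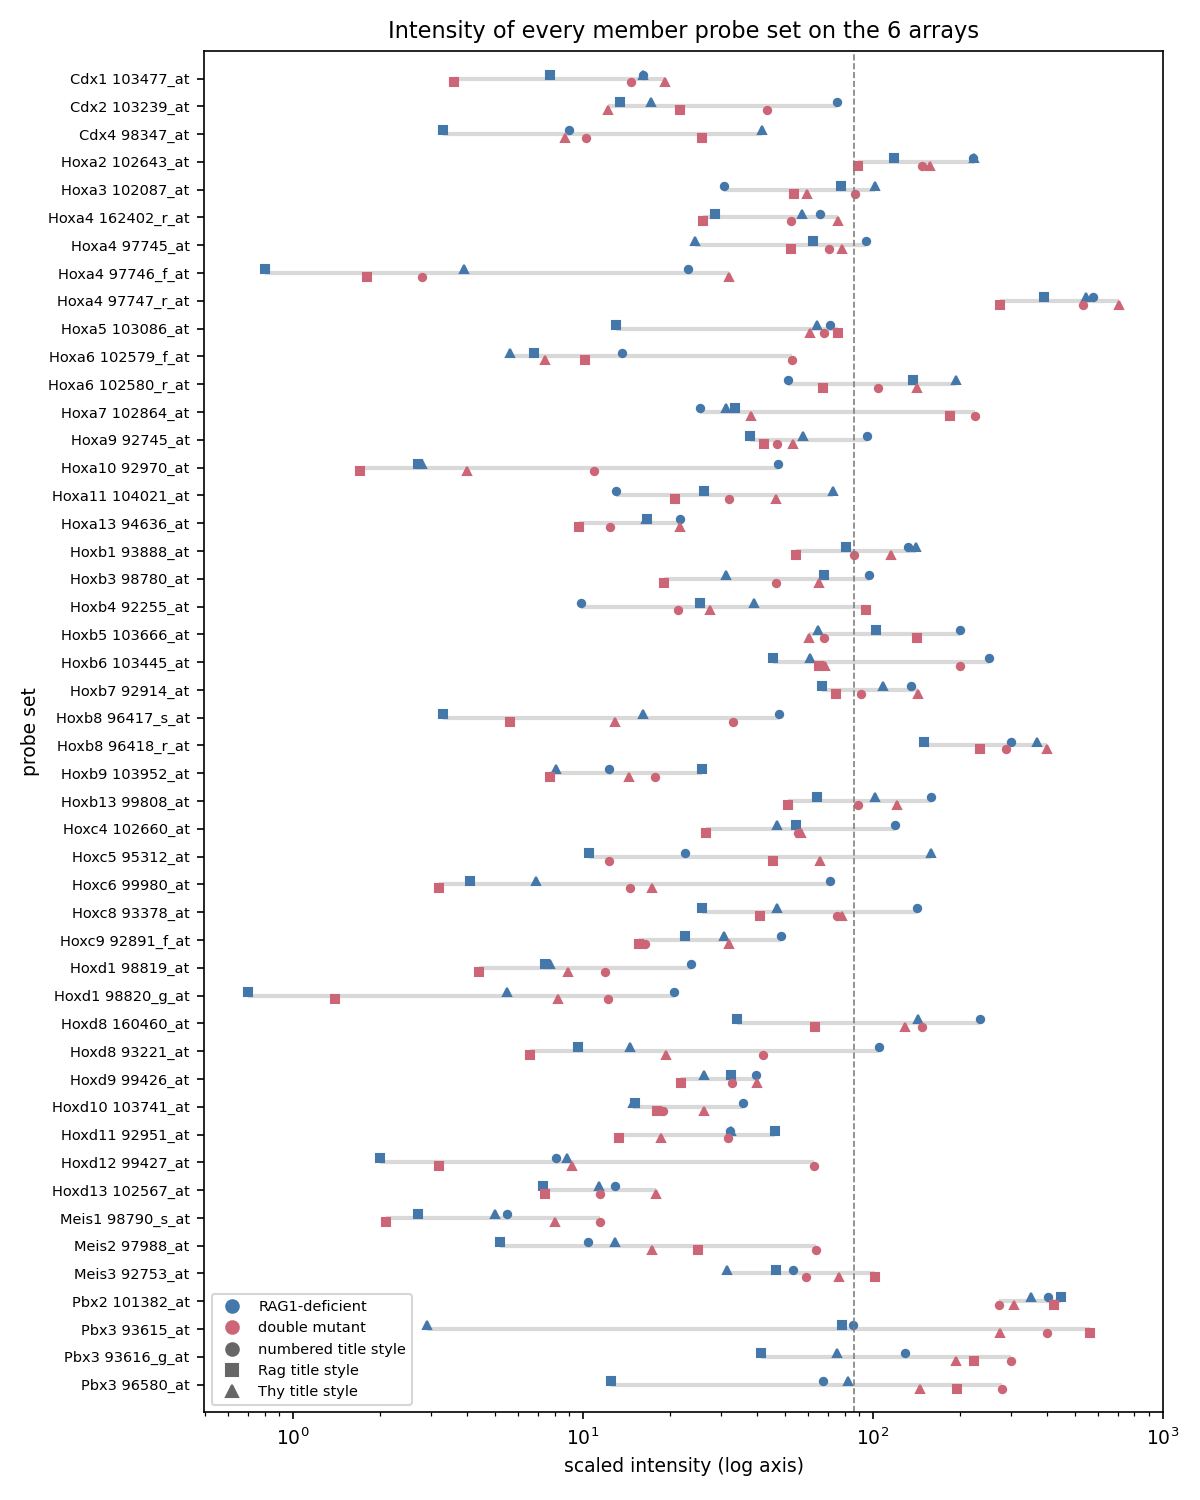
Scaled intensity (log axis) of all 48 member probe sets on each array, RAG1-deficient in blue and double mutant in red, with grey lines for the range over the 6 arrays and a dashed line at the filter level of 86.5. Of the 48 probe sets 23 lie under the level on all 6 arrays, and 4 lie above it on all 6.

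Across the arrays in general, and in the Hox probe sets at a share not far from the general one, the title styles differed more than the groups did. The mean square between styles (sum of squares over its degrees of freedom) exceeded that between groups in 32 of the 38 Hox probe sets (84.2%), against 75.1% of all probe sets, and in 4 of the 10 Pbx, Meis and Cdx probe sets. In 21 of 38 Hox probe sets (55.3%) the Rag array was the lowest of its group in both groups, against 39.6% of all and 49.1% of untested probe sets. The median distance of the Rag array from the mean of the other 2 was -0.47 in RAG1-deficient and -0.50 in double mutant samples for Hox, and -0.40 and -0.35 for untested probe sets. The dim end of the arrays moved in the same way: the 20th percentile of intensity was 34.7, 13.9 and 25.9 in RAG1-deficient and 27.9, 13.8 and 27.4 in double mutant samples. The 3' to 5' signal ratio of the actin control, a check on RNA quality, was 1.91, 2.26 and 1.40 in RAG1-deficient samples. In double mutant samples it was 1.99, 2.77 and 1.24. For the Gapdh control the ratios were 1.04, 1.35 and 0.89 against 0.93, 1.14 and 0.84, so the Rag arrays were highest for both controls. The part of the dim end or of RNA quality in the Hox levels was not tested. The number of Hox probe sets above the filter level was 15, 5 and 10 in RAG1-deficient and 10, 6 and 8 in double mutant samples, in overlapping ranges.

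Genes that act with or upon the members were taken from lists. Of the other TALE genes 3 probe sets were tested and 0 passed in either limma fit. Among these 3, Pknox1, a Pbx partner related to Meis, had a log2 difference of -0.39 and Tgif2, a repressor, -0.10. The paired fit gave an unadjusted p under 0.05 to 0 probe sets of the TALE and trithorax/MLL lists, to 2 of the 5 of the retinoic acid list, both lower, and to 1 of the 10 of the HoxA9 and Meis1 list, higher. The shares over all tested probe sets were 5.4% lower and 7.73% higher. Of the trithorax/MLL list, 15 probe sets of 13 genes were tested, 6 above and 9 below 0 with a median of -0.04, and 0 passed. Its member Kmt2a, which encodes MLL1, gave log2 differences of -0.60 and -0.23 with its 2 probe sets, and Hcfc1, a scaffold of MLL complexes, gave 0.45 and -0.01. Of the retinoic acid pathway, the signal that induces anterior Hox genes in the embryo, 5 probe sets of 4 genes were tested, 2 above and 3 below 0 with a median of -0.56, and 0 passed. Dhrs3, a retinaldehyde reductase, gave 565.9, 684.0 and 566.6 against 329.4, 412.0 and 338.8, with all double mutant samples lower and a log2 difference of -0.72 (adjusted p = 0.943 unpaired and 0.0922 paired in limma). The receptor gene Rxrb had -0.65 with overlapping groups. Of the programme of genes tied to HoxA9 and Meis1 in progenitors and leukaemia, 10 probe sets of 7 genes were tested, 3 above and 7 below 0 with a median of -0.06, and 0 passed. It included the cytokine receptor gene Kit, at 457.4, 191.1 and 249.8 against 537.4, 301.7 and 402.6, with a log2 difference of 0.49 that did not pass (paired adjusted p = 0.294 in limma). The progenitor marker Cd34 had a log2 difference of -0.62 with its tested probe set and did not pass (paired adjusted p = 0.513 in limma).

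The genes next to the Hox clusters were followed because they lie beside the members on the chromosome. Of the 40 nearest genes, 19 were tested with 24 probe sets, 15 above and 9 below 0 with a median of 0.10. In the unpaired limma fit 0 of the 24 passed, with an unadjusted p under 0.05 for 3 upward and 0 downward, against 2.29% and 0.903% of all tested probe sets. In the paired fit 1 passed, with 6 higher and 0 lower at that level, against 7.73% and 5.4%. That gene was Mtx2, next to Hoxd1, which encodes a protein of mitochondrial import. It gave 319.2, 283.2 and 233.2 against 826.0, 1047.0 and 1044.8 with a log2 difference of 1.73 (adjusted p = 0.0577 unpaired and 0.0192 paired). The paired count of neighbours that passed was 0 without the filter, without a trend in the variance and without the Thy pair. On the other side of the cluster from it, Evx2, the homeobox gene next to Hoxd13, lay at 16.1 to 46.1 and was untested. Hoxd1, the cluster gene nearest to Mtx2, read 23.7, 7.4 and 7.7 against 11.9, 4.4 and 8.9 with probe set 98819_at and was untested too. Cbx5, Cbx1 and Atp5g2 each gave 1 of the 6 probe sets higher at an unadjusted p under 0.05 in paired limma. The 2 genes that follow were also among these 6, and were chosen after their values were seen. Skap2, an adaptor protein gene near the Hoxa cluster, had a log2 difference of 0.62 that did not pass (paired adjusted p = 0.146 in limma). Nfe2, a transcription factor gene of the erythroid and platelet lineages near the Hoxc cluster, gave 354.4, 654.7 and 725.7 against 968.5, 1237.5 and 1104.6. Its groups did not overlap, and its log2 difference of 0.96 did not pass (paired adjusted p = 0.0699 in limma). The summed level of the erythroid and platelet markers, beside Nfe2, was 27061, 30888 and 596 in RAG1-deficient and 30767, 16814 and 1143 in double mutant samples, and its part in the Nfe2 values was not tested.

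**Figure D4:**
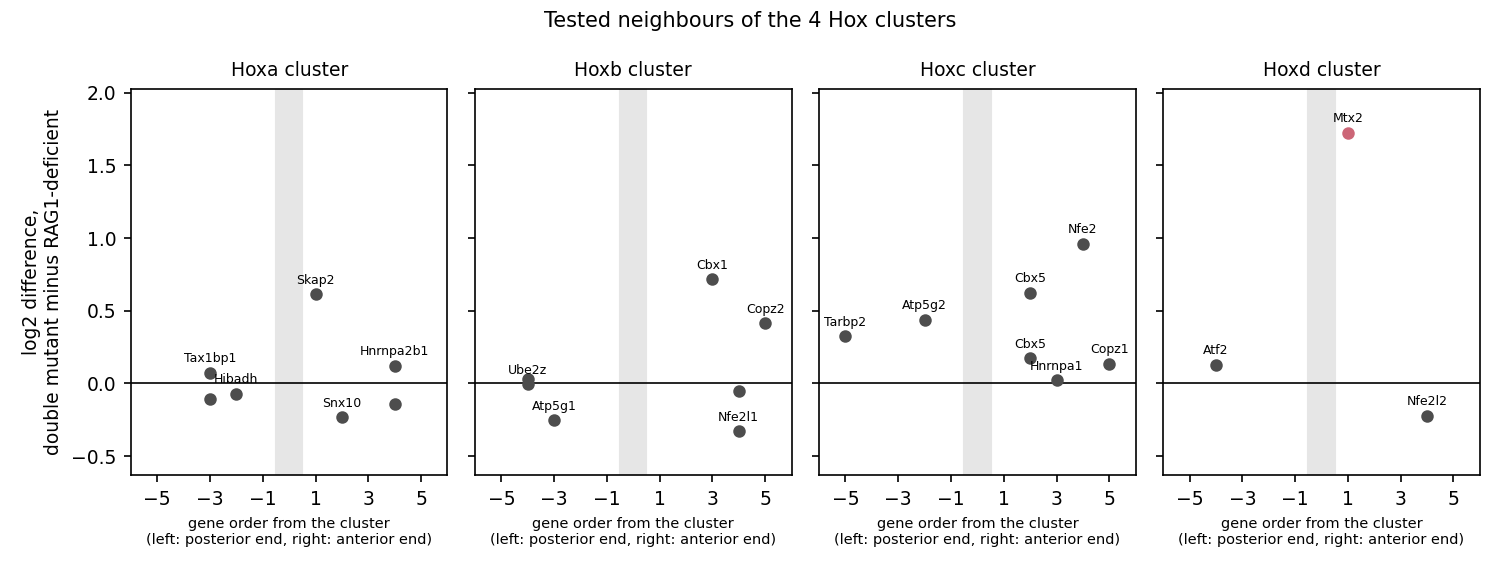
Log2 difference, double mutant minus RAG1-deficient, of the tested genes next to each Hox cluster, placed by gene order from the posterior (left) or anterior (right) end of the cluster (grey band), 1 point per probe set. Mtx2, in red, is the one that passed in the paired fit, at 1.73, and the others lie between -0.33 and 0.96.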

How the data were processed

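Total RNA of double-negative thymocytes was measured on 3 RAG1-deficient and 3 double mutant arrays. The authors deposited 1 linear intensity per probe set and array, by software not given in the sources used here. The trimmed means lay between 500.293 and 500.37, so each array had been scaled to a common mean; a shift common to most transcripts would not show. The table holds 12488 probe sets. The 66 controls were left out, and the platform table named 1 gene for 10833, several for 396 and none for 1193. Symbols were looked up by Entrez number in RefSeq (GRCm38.p6), where 10839 matched, controls included, and 0 changed. RefSeq was used for names, gene order and the promoter windows.

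Deposited intensities were compared on the log2(intensity + 23) scale (the 20th percentile, rounded) with limma 3.58.1 in R 4.3.3 (lmFit, eBayes with trend, two-sided), at a Benjamini-Hochberg adjusted threshold of 0.05. The scripts were tested on simulated data. Python 3.11.15 and matplotlib 3.10.9 were used for the figures. The number of arrays limits the precision.

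Replicates 1, 2 and 3 are the numbered, Rag and Thy titles of each group. The pairing comes from the titles alone, and the labels name no litter, day or batch. Deviations from the group means correlated at 0.570, 0.736 and 0.602 within the styles and at -0.544 to 0.0394 between them; each style was over the pairing limit of 0.1, and the paired fit is given beside the unpaired one.

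All 6 values are given for members without overlap between groups, with an unadjusted p under 0.05, for the tested probe set with the highest mean of each cluster or family, for untested members with a value over 2 times the filter level, and for other probe sets of those genes. Values of Hoxa9, Meis1 and Hoxd1, and those of Hoxa2, were added after they were seen. The members, lists and tests were chosen with earlier results of these data known, Hoxa7, Hoxa2, Mtx2 and Ezh2 among them, and these are no independent support. Alternatives changed the pseudocount, filter, scaling, variance trend and samples; their combinations with the block were added after the paired call of Pbx3 was seen.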

Additional observations from a re-analysis of the deposited data

How the results depend on the processing

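The count of members passing upward was 0 in the unpaired limma fit and 1 (Pbx3) with the title-style pairing as a block, alone or with a pseudocount of 100, a filter on the mean, quantile scaling or median centring. It was 0 with the block and a pseudocount of 5, no filter or no variance trend, and 0 to 1 when samples or pairs were left out, 1 only without the Rag pair, which leaves 2 arrays a group. The count passing downward was 0 throughout. The block changed no other member's call. The median of the tested Hox probe sets, -0.15, ranged from -0.377 to 0.0825 when samples were left out. The median of the 4 tested Pbx, Meis and Cdx probe sets was 1.54, but these read only Pbx2 and Pbx3. Entry of the Pbx3 probe sets depended on high double mutant values, so 1.54 is no measure of the families. Without the filter the median was 0.37, with or without the block, since 10 probe sets then entered. The sign of uncalled values turned when samples were left out, for dim untested probe sets such as those of Hoxb6 (-0.38 to 0.68) and Hoxd8 (93221_at, -0.68 to 0.31) too: from -0.36 to 0.29 (0.13 without the Rag pair) for Hoxa4 (97747_r_at), from -0.13 to 0.45 for Hoxb8 (96418_r_at) and from -0.66 to 0.42 (0.23 without the numbered pair) for Hoxd8 (160460_at), whose difference was also 0.0014 with a pseudocount of 5, with or without the block. The cause was not tested. Most Hox probe sets lay near the dim end of the arrays. In most Hox probe sets, as in most of all probe sets, the title styles differed more than the groups. Differences within that spread are not detectable in the unpaired fit. The paired fit takes out the differences between styles, and there the spread left within the styles sets the limit.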

Other observations

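Probe sets that read 2 Hox genes together stood outside the rule for members. Hoxd3 and Hoxd4 had no probe set of their own and are not members. The probe set shared by Hoxb7 and Hoxb8 gave 232.6, 79.7 and 212.1 in RAG1-deficient and 176.4, 102.3 and 155.4 in double mutant samples (numbered, Rag and Thy), a log2 difference of -0.16. The 2 probe sets shared by Hoxd3 and Hoxd4 lay at 14.6 to 110.4, with log2 differences of -0.34 and 0.0045. The groups of all 3 overlapped.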
